A study of Mus musculus with 9 samples.

Results

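The 10 genes described here are surface, secreted and other genes often used to tell microglia from other macrophages: Tmem119, Trem2, Olfml3, Golm1, Slco2b1, Crybb1, Cst3, Tgfbr1, Bin1 and Ecscr. They were chosen by name. Each had 1 probe set with a single gene symbol on the array, so all 10 were measured, among 19938 genes in all. RNA of 3 sorted mouse cell populations was measured on Affymetrix gene arrays, with 3 biological replicates and 3 arrays per population. One population was T cell zone macrophages (TZM) of the lymph node, sorted as GFP-high, MertK+, CD11b+ and CD169 negative cells. The second was brain macrophages (microglia), sorted as GFP-high, CD11b+ and CD45+ cells. The third was CD8a+ dendritic cells (DC), sorted without CD64 and with CD8a, much CD11c and much MHC class II. All 9 samples came from mice of genotype CX3CR1 gfp+/-, in which 1 copy of the fractalkine receptor gene carries a green fluorescent reporter, so no population was wild type at that locus. The sample fields place the DC in the lymph node and the sorting protocol places them in the spleen. The labels give no age, and whether replicates came from separate or pooled animals is not given in the sources used here, so p-values measure the spread between these samples. None of the 10 genes encodes a marker of the sort gates.

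Microglia are the macrophages that live within brain tissue. Their identity depends on transforming growth factor beta (TGF-beta), which signals through a receptor pair that includes the Tgfbr1 product to Smad proteins in the nucleus. Their sensing of lipids, apolipoproteins and dying cells depends in part on TREM2, a lipid receptor that signals through the adaptor encoded by Tyrobp. TZM are macrophages of the T cell area of the lymph node, and CD8a+ DC are cross-presenting dendritic cells.

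The sorted cells carried the marker genes of their labels. All 10 measured defining macrophage genes were higher in TZM than in DC and in microglia than in DC, all 6 measured defining microglia genes were higher in microglia than in both other populations, and 11 of 12 type 1 DC genes were lower in TZM and 12 of 12 lower in microglia than in DC. The lists hold gate genes too (Mertk, Fcgr1 and Cd8a), which are no findings. Mean marker levels stayed between 3.98 and 4.64 for neurons and astrocytes (10 genes each) in all arrays. For 8 T cell genes they were 5.52 to 5.79 in TZM, 4.35 to 4.50 in microglia and 5.06 to 5.17 in DC. For 9 B cell genes they were 5.2 to 5.27 in TZM, 4.57 to 4.76 in microglia and 5.18 to 5.25 in DC. For 10 stroma genes they were 5.46 to 5.62 in TZM, 4.75 to 4.78 in microglia and 4.72 to 4.88 in DC. For 9 neutrophil and monocyte genes they were 5.21 to 6.12 in TZM, 4.85 to 4.90 in microglia and 4.52 to 4.59 in DC. Some single genes stood well above these means. Slc1a3 of the astrocyte list averaged 8.13 in TZM and 7.3 in microglia, above DC by 3.53 and 2.7. In TZM Cd28 of the T cell list averaged 9.07 and Cd79b of the B cell list 9.27. The stroma genes Ccl19 and Cxcl13 averaged 8.68 and 8.33 there. Csf3r of the neutrophil and monocyte list averaged 7.71 in TZM and 9.93 in microglia. In DC Ccr9 of the T cell list averaged 7.13. S100a8 and S100a9 follow below. Values are log2 levels after robust multi-array averaging (RMA), and the median over all genes lay between 4.90 and 5.02 on every array. The files were read without a detection call, so a level near that median is not separated from background, and a fold change against it tends to understate the difference. A gene was called at a limma adjusted p under 0.05 over all 19938 genes and a log2 fold change of 1 or more in size. In bulk samples such as these, fewer cells that express a gene and less RNA per cell cannot be told apart. In 2 of 3 microglia arrays Ttr, an abundant transcript of the choroid plexus, was high (12.15, 5.48 and 11.83 in replicates 1, 2 and 3), and the mean of 7 choroid plexus genes was 4.14 to 4.39 in TZM, 4.48 to 5.94 in microglia and 4.13 to 4.30 in DC. In TZM the salivary transcript Bpifa2 stood at 10.24, 12 and 9.29. For the 10 genes and the named pathway genes, some printed log2 fold changes turned or changed call without 1 of these arrays or both Ttr-high arrays. Their values without those arrays are given beside them or in the closing section. Values of marker genes are given from all 9 arrays only.

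The microglia list separated the 3 populations, with TZM placed between microglia and DC for 5 genes. Those genes, Tmem119, Tgfbr1, Olfml3, Slco2b1 and Golm1, were higher in TZM than in DC and lower in TZM than in microglia. Another 4 genes, Trem2, Bin1, Crybb1 and Ecscr, were higher in microglia than in both other populations and were not called between TZM and DC. The remaining gene, Cst3, was high everywhere and had its lowest levels in TZM. In numbers, 5 of 10 genes were higher and 0 lower in TZM than in DC, where the calls over all genes were 4.71% higher and 4.03% lower (8.74% either way). At an unadjusted limma p under 0.05, 7 of the 10 were higher and 2 lower in that comparison. Between TZM and microglia 9 of 10 were lower and 0 higher in TZM, against 3.4% and 4.25% of all genes (7.65% in either direction), and at an unadjusted limma p under 0.05 all 10 were lower and 0 higher. Between microglia and DC 9 of 10 were higher and 0 lower in microglia, against 5.15% and 6.01% of all genes (11.2% in either direction), with 9 higher and 0 lower at an unadjusted limma p under 0.05. The median log2 fold change of the 10 genes was 0.85 for TZM against DC, -3.70 for TZM against microglia and 4.55 for microglia against DC, where the medians over all genes were 0.02, 0.01 and 0.01. The arrays of the 2 groups did not overlap for 9 of 10 genes between TZM and DC, where 32.3% of all genes did not, for 10 of 10 between TZM and microglia (30.5% of all genes) and for 10 of 10 between microglia and DC (37.8%). All 10 reached a level of 6 in at least 3 arrays, Crybb1 and Ecscr through the microglia arrays alone. Each pair of comparisons shares 1 group of arrays, and the genes were known as microglia genes when they were chosen.

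**Figure D1:**
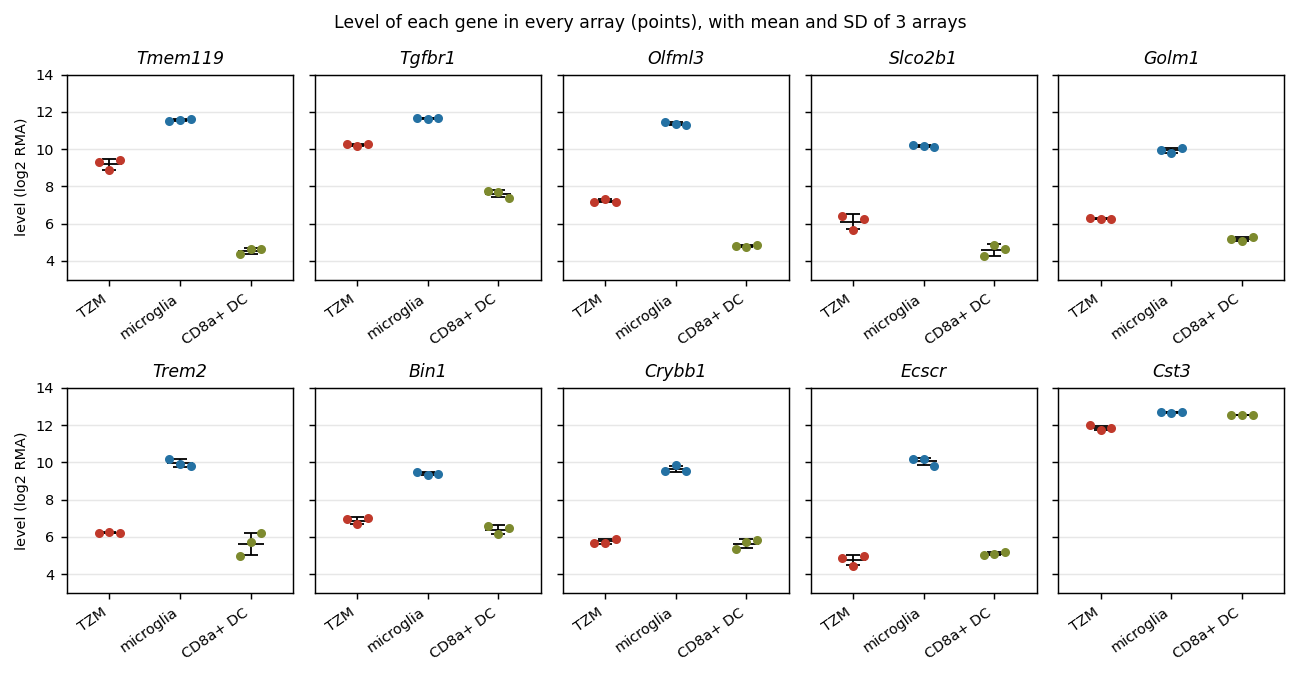
Level (log2 RMA, vertical axis) of the 10 genes in each of the 9 arrays (points), with the mean and SD of 3 arrays (bars), for TZM, microglia and CD8a+ DC. In the top row TZM lie between microglia and DC. In the bottom row TZM lie close to DC, except for Cst3, where TZM average 11.85, microglia 12.69 and DC 12.54.

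Tmem119, a transmembrane protein widely used as a microglia marker, was the member that stood furthest above DC in TZM. Its levels were 9.29, 8.86 and 9.40 in the TZM arrays, 11.50, 11.58 and 11.59 in the microglia arrays and 4.37, 4.62 and 4.62 in the DC arrays. The 3 populations did not overlap, and the DC levels lay below the array medians. TZM were higher than DC by 4.64 (standard error, SE, 0.14, adjusted p = 1.1e-07), a 25.0-fold difference. They were lower than microglia at -2.38 (SE 0.14, adjusted p = 6.0e-06), or 5.19-fold. On the log2 scale the mean of TZM lay at 66.2% of the way between the means of DC and microglia. Profiles were compared here and below with predicted genes, clones, RIKEN names, small RNA genes and pseudogenes passed over. Of the genes left, those with the profile most like that of Tmem119 were Cx3cr1, Pmp22 and P2ry12. Likeness was measured as the root mean square difference over the 9 arrays, each gene centred on its own mean, and was 0.24, 0.33 and 0.34. Cx3cr1, the fractalkine receptor, is also the locus of the reporter used in the sort.

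Tgfbr1, the type I TGF-beta receptor, was the other member for which TZM came nearer to microglia than to DC, at 64.4% of the way. Its levels were 10.25, 10.17 and 10.25 in TZM, 11.67, 11.63 and 11.69 in microglia and 7.75, 7.68 and 7.39 in DC. The groups did not overlap, and the spread within each was at most 0.19 (SD, n = 3). TZM were higher than DC by 2.61 (SE 0.09, adjusted p = 3.0e-07) and lower than microglia at -1.44 (SE 0.09, adjusted p = 1.2e-05), a 2.72-fold difference. This was the smallest of the 9 called differences between TZM and microglia. The genes most like it were Slc7a8, an amino acid transporter, Itga6, an integrin chain, and Dock4, a guanine nucleotide exchange factor (root mean square differences of 0.13, 0.14 and 0.17).

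Olfml3, a secreted glycoprotein with an olfactomedin domain, was in between in TZM. TZM had 7.18, 7.32 and 7.18, microglia 11.43, 11.37 and 11.30, and DC 4.80, 4.76 and 4.87. The arrays of each group were tight and far from those of the others. The log2 fold changes were 2.42 for TZM against DC (SE 0.07, adjusted p = 7.9e-08) and -4.14 for TZM against microglia (SE 0.07, adjusted p = 1.3e-08), which placed TZM at 36.8% of the way. The DC levels of Olfml3, Tmem119 and Slco2b1 averaged below the array medians, so the distance of TZM from DC is a minimum for these genes, and their positions may be too low. In linear terms, TZM were 5.34-fold above DC and 17.7-fold below microglia. The nearest profiles were those of Abca9, F11r and Slco2b1 (0.41, 0.52 and 0.52), of which the last is another of the 10 genes.

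Slco2b1, an uptake transporter for organic anions, was at 6.40, 5.65 and 6.27 in TZM, 10.23, 10.17 and 10.12 in microglia and 4.25, 4.86 and 4.65 in DC. TZM replicate 2 was the lowest TZM array, yet it stayed above every DC array. The difference between TZM and DC was 1.52 (SE 0.21, adjusted p = 0.00093) and that between TZM and microglia -4.06 (SE 0.21, adjusted p = 3.1e-06). Golm1, a membrane protein of the Golgi, was at 6.32, 6.24 and 6.25 in TZM, 9.95, 9.80 and 10.06 in microglia and 5.17, 5.07 and 5.27 in DC. It had the smallest called difference between TZM and DC, 1.10 (SE 0.08, 95% interval 0.91 to 1.29, adjusted p = 2.5e-05), so the interval reached below the minimum fold change. Against microglia Golm1 was at -3.66 (SE 0.08, adjusted p = 3.7e-08). TZM lay at 27.2% of the way for Slco2b1 and 23.1% for Golm1. The gene nearest to Slco2b1 was F11r, a junctional adhesion molecule (0.23), and that nearest to Golm1 was Siglece, an inhibitory receptor for sialic acid (0.28).

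Trem2 was at 6.21, 6.28 and 6.20 in TZM, 10.19, 9.92 and 9.80 in microglia and 5.0, 5.71 and 6.20 in DC. Microglia stood far above both other populations, while the DC arrays were spread over more than 1 log2 unit and the highest of them equalled the lowest TZM array to 2 decimals. The difference between TZM and microglia was -3.74 (SE 0.26, adjusted p = 1.8e-05), or 13.3-fold, and that between microglia and DC 4.33 (SE 0.26, adjusted p = 4.4e-06). TZM against DC gave 0.60 (SE 0.26, adjusted p = 0.17), with a 95% interval of 0.00 to 1.19 that includes the minimum fold change. Without DC replicate 1 this value was 0.28 (adjusted p = 0.37), and without DC replicate 3 it was 0.88 (adjusted p = 0.027), still under the minimum fold change.

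Crybb1, a beta crystallin best known as a structural protein of the lens, was at 5.70, 5.68 and 5.91 in TZM, 9.54, 9.84 and 9.55 in microglia and 5.36, 5.73 and 5.82 in DC. The TZM and DC arrays overlapped, and the difference between them was 0.13 (SE 0.14, 95% interval -0.19 to 0.44, adjusted p = 0.63). Its sign turned without DC replicate 1 (-0.01, adjusted p = 0.98). TZM were lower than microglia at -3.88 (SE 0.14, adjusted p = 3.6e-07), a 14.7-fold difference. The genes nearest to Crybb1 were Plxna4, Sgce and Peg10 (0.15, 0.17 and 0.18), and the gene nearest to Trem2 was Crybb1 (0.31).

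Promoter windows of 7 of the 10 genes were searched, 10 windows in all, each holding the 250 bases before a start. The 250 bases before the annotated start are shown for Olfml3, which TZM shared in part, and for Trem2 and Crybb1, for which TZM stayed near DC, so that the windows can be compared. They are written 5′ to 3′ on the strand of the gene, from RefSeq (GRCm38.p6), and the positions are chr3:103738002-103738251, minus strand, chr17:48346151-48346400, plus strand, and chr5:112255570-112255819, plus strand.
Olfml3: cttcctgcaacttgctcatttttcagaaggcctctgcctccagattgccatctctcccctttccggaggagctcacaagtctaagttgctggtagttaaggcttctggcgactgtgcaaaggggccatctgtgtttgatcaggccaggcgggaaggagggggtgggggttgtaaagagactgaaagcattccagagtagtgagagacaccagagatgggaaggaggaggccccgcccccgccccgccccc
Trem2: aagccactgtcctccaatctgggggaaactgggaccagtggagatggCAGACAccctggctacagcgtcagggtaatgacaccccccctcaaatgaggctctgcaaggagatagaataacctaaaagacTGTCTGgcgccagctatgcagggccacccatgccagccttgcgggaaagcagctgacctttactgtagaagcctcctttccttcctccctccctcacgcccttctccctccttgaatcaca
Crybb1: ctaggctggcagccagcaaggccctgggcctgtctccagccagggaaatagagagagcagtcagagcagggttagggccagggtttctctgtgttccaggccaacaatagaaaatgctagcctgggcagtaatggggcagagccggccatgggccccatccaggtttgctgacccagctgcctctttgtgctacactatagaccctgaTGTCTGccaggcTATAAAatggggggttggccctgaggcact
Capitals mark matches on either strand to CAGACA, a SMAD-type sequence, and TATAAA, a core promoter sequence, and no matches overlap. The Trem2 window held CAGACA on both strands, and the Crybb1 window held it on the opposite strand and TATAAA on its own strand, starting 30 bases before the start. The Olfml3 window held no match to any of the 4 motifs searched. CAGACA was in 3 of 10 windows of the 7 genes and in 17.1% of all 32851 promoters, and TATAAA in 2 of 10 and in 12.4%. The CAGACA window not shown was one of Tgfbr1, and the TATAAA window not shown was that of Golm1. TZM shared Tgfbr1 and Golm1 in part, so neither motif was confined to genes for which TZM stayed near DC. The other 2 motifs, GAGGAAGT of the PU.1 type and a MEF2-type motif, were in none of the 10 windows and in 2.44% and 3.20% of all promoters. Of the upstream bases, 57.6% were G or C for Olfml3, 56.0% for Trem2 and 58.0% for Crybb1, against a median of 52.4% over all promoters.

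Ecscr, a transmembrane regulator of chemotaxis first described in endothelial cells, had the largest difference between TZM and microglia among the 10 genes. It was at 4.87, 4.45 and 4.96 in TZM, 10.16, 10.16 and 9.82 in microglia and 5.04, 5.11 and 5.17 in DC. TZM and DC both lay near the array medians, and every TZM array was below every DC array by a small margin. The log2 fold change was -5.28 for TZM against microglia (SE 0.14, adjusted p = 8.0e-08), or 39.0-fold, and -0.34 for TZM against DC (SE 0.14, adjusted p = 0.15). The mean level of 17 other endothelial marker genes was 4.46 to 4.52 in the TZM arrays, 4.35 to 4.40 in the microglia arrays and 4.46 to 4.50 in the DC arrays. Of those markers Cdh5 and Pecam1 were at 6 or more on all TZM arrays, and Pecam1 was on all microglia and all DC arrays. Cdh5, an endothelial cadherin, averaged 7.65 in TZM, 5.24 in microglia and 5.38 in DC, and was higher in TZM than in microglia by 2.42 (adjusted p = 5.6e-07) and than in DC by 2.28 (adjusted p = 6.1e-07). Cldn5 and Tie1 averaged 4.77 and 4.79 in microglia. The profiles nearest to Ecscr were those of Cd34, a sialomucin of progenitor and endothelial cells, Slc2a5, a fructose transporter, and Sall1, a microglial transcription factor (0.21, 0.23 and 0.29).

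Bin1, an amphiphysin-type protein that bends and tubulates membranes, was at 6.96, 6.68 and 7.01 in TZM, 9.51, 9.34 and 9.37 in microglia and 6.59, 6.15 and 6.47 in DC. TZM lay above DC in every array, by 0.48 (SE 0.13, 95% interval 0.18 to 0.78, adjusted p = 0.032), which passed the p threshold and not the minimum fold change. Against microglia the log2 fold change was -2.53 (SE 0.13, adjusted p = 3.1e-06), or 5.77-fold. TZM lay at 16% of the way between DC and microglia for Bin1, at 13.8% for Trem2, at 3.2% for Crybb1 and at -7.0% for Ecscr. Markers of oligodendrocytes, another brain cell type rich in BIN1, averaged 4.56 to 4.62 in TZM, 4.65 to 4.76 in microglia and 4.63 to 4.71 in DC over 9 genes. Of those markers Mbp and Cnp were at 6 or more on all microglia and all DC arrays, and Mbp was on all TZM arrays. Cnp averaged 5.93 in TZM, 6.96 in microglia and 7.51 in DC. It was lower in TZM than in microglia at -1.03 (adjusted p = 0.0016) and than in DC at -1.58 (adjusted p = 0.00012). The 95% interval against microglia, -1.38 to -0.68, reached below the minimum fold change.

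**Figure D2:**
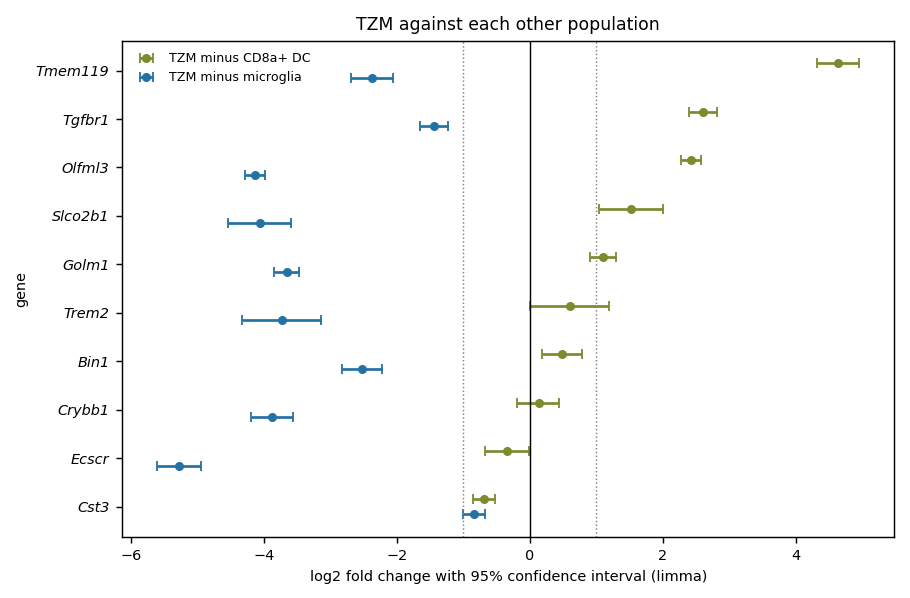
Log2 fold change (horizontal axis) of each of the 10 genes (vertical axis) in TZM against CD8a+ DC and in TZM against microglia, with 95% confidence intervals from limma (bars). Dotted lines mark the minimum fold change of 1 in each direction. Against DC, Tmem119 stands at 4.64 and Ecscr at -0.34, and against microglia Tgfbr1 stands at -1.44 and Ecscr at -5.28.

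Cst3 encodes cystatin C, a secreted inhibitor of cysteine proteases. Its levels were 11.98, 11.75 and 11.82 in TZM, 12.73, 12.64 and 12.70 in microglia and 12.55, 12.52 and 12.54 in DC. All TZM arrays lay below all arrays of the other populations. The log2 fold change was -0.84 against microglia (SE 0.07, 95% interval -1.0 to -0.68, adjusted p = 5.4e-05) and -0.69 against DC (SE 0.07, adjusted p = 0.00015), past the p threshold and under the minimum fold change in both cases. Microglia and DC differed by 0.15 (SE 0.07, 95% interval -0.01 to 0.31, adjusted p = 0.18). Cst3 was the single member of the 10 that was not called between microglia and DC.

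Of the 6 other cystatin genes measured, Cst7 and Cstb were higher in TZM against microglia and against DC, while Cst6, Csta1, Stfa2 and Stfa3 averaged between 3.08 and 4.02 in every population and were not called in any comparison. Cst7, cystatin F, which acts on proteases inside endosomes and lysosomes, averaged 10.49 ± 0.44 in TZM, 5.98 ± 0.25 in microglia and 5.11 ± 0.29 in DC (SD, n = 3 each). It was higher in TZM by 4.51 than in microglia (SE 0.24, adjusted p = 3.8e-06) and by 5.38 than in DC (SE 0.24, adjusted p = 1.0e-06). Cstb, the cytosolic cystatin B, was higher in TZM by 1.84 than in microglia (adjusted p = 2.1e-06) and by 1.51 than in DC (adjusted p = 5.3e-06). Among 16 measured genes for cystatins other than Cst3 and for lysosomal cysteine proteases, 9 were higher and 0 lower in TZM than in DC. At an unadjusted limma p under 0.05 the counts were 11 and 1. The median log2 fold change of the 16 was 1.34, against 0.02 over the 19938 genes, of which 4.71% were higher and 4.03% lower. Ctsc rose by 3.05, Lgmn by 2.93, Ctsl by 2.51 and Ctsb by 2.31 in TZM against DC. These genes encode proteases that cut proteins in lysosomes, of which the Ctsc product also activates other proteases. Against microglia, where 4.25% of all genes were called higher and 3.4% lower, 3 of 16 were higher in TZM (Cst7, Cstb and Ctsc). Another 3 were lower, Lgmn at -1.73, Ctsf at -1.17 and Ctsl at -1.05. Without TZM replicate 2 the lower count was 1, as Ctsf was at -0.97 and Ctsl at -0.90, under the minimum fold change. Ctsl was also under it without microglia replicate 1 (-0.98) and without both Ttr-high arrays (-0.99). Ctss, a protease that processes the class II invariant chain, was at -0.25 against microglia (adjusted p = 0.021) and was higher in TZM than in DC by 1.17 (adjusted p = 2.4e-06).

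**Figure D3:**
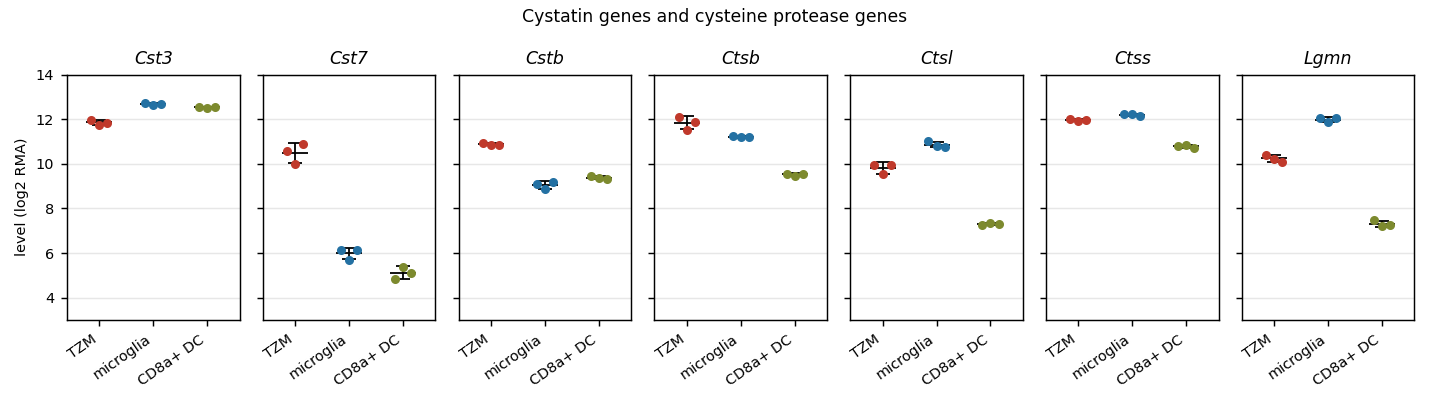
Level (log2 RMA, vertical axis) of 3 cystatin genes and 4 cysteine protease genes in each array (points) of TZM, microglia and CD8a+ DC, with mean and SD of 3 arrays (bars). Cst3 is lowest in TZM, whereas Cst7 averages 10.49 in TZM, 5.98 in microglia and 5.11 in DC.

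In the TGF-beta pathway, the receptor genes Tgfbr2, Tgfbr3 and Eng were higher in TZM than in DC, while Smad3 and Smad7 were not called between them. Of 27 measured genes other than Tgfbr1, 6 were higher and 1 lower in TZM than in DC (median 0.10), 2 were higher and 6 lower in TZM than in microglia (median -0.13), and 7 were higher and 2 lower in microglia than in DC (median 0.23). Over all genes the shares higher and lower were 4.71% and 4.03%, 4.25% and 3.4%, and 5.15% and 6.01% in that order. The medians were 0.02, 0.01 and 0.01. The 2 higher against microglia became 1 without TZM replicate 2. Tgfbr2, the type II receptor that pairs with Tgfbr1, averaged 8.88 ± 0.50 in TZM, 9.04 ± 0.14 in microglia and 6.94 ± 0.05 in DC. It was higher in TZM than in DC by 1.94 (SE 0.22, adjusted p = 0.00027) and had a log2 fold change of -0.16 against microglia (SE 0.22, adjusted p = 0.71), which turned to 0.13 without TZM replicate 2 (adjusted p = 0.42). The co-receptor gene Tgfbr3 was higher in TZM by 1.82 than in DC (adjusted p = 6.2e-06) and by 1.66 than in microglia (adjusted p = 1.4e-05). Endoglin, encoded by Eng, lay between the others in TZM, 1.20 above DC (adjusted p = 0.0003) and at -2.08 against microglia (adjusted p = 1.3e-05).

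Smad3, which carries the signal to the nucleus, was at 6.67 ± 0.20 in TZM, 8.43 ± 0.15 in microglia and 6.35 ± 0.06 in DC. It was lower in TZM than in microglia at -1.76 (SE 0.11, adjusted p = 1.2e-05) and was not called against DC (0.31, SE 0.11, adjusted p = 0.096). The inhibitory Smad7, itself induced by TGF-beta, was at 5.92 ± 0.25 in TZM, 8.40 ± 0.18 in microglia and 5.84 ± 0.29 in DC, with a log2 fold change of -2.47 against microglia (SE 0.18, adjusted p = 2.1e-05) and 0.09 against DC (SE 0.18, adjusted p = 0.82), which turned to -0.06 without TZM replicate 2 and without DC replicate 3. Pmepa1, another negative regulator induced by the pathway, was in between in TZM, 1.66 above DC (adjusted p = 0.00011) and at -1.51 against microglia (adjusted p = 0.00023). The ligand gene Tgfb1 gave -0.13 against DC and -0.35 against microglia, Nrros, which holds latent TGF-beta at the surface of microglia, gave -0.01 and -0.14, and the integrin gene Itgb8 gave 0.03 and -0.20. None of these values passed the test, with adjusted p from 0.29 to 0.97. Tgfb1 stood at 9.31, 8.54 and 9.32 in the TZM arrays, and without TZM replicate 2 its values were 0.13 against DC (adjusted p = 0.38) and -0.09 against microglia (adjusted p = 0.57).

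Of the TREM2 partners, Tyrobp, Syk, Inpp5d and Plcg2 averaged above the array medians in all 3 populations. Vav3, of the same list, averaged 3.76 in TZM and 3.51 in microglia, below those medians, and 6.94 in DC. It was lower in TZM than in DC at -3.18 (adjusted p = 1.8e-07). The adaptor Tyrobp averaged 11.94 ± 0.05 in TZM, 12.07 ± 0.08 in microglia and 11.35 ± 0.02 in DC, with a log2 fold change of -0.14 for TZM against microglia (adjusted p = 0.17) and 0.58 against DC (adjusted p = 0.00018, under the minimum fold change). Syk, the kinase that binds the phosphorylated adaptor, was higher in TZM than in DC by 1.43 (SE 0.14, adjusted p = 0.0001) and stood at 0.95 against microglia (adjusted p = 0.0013, under the minimum fold change). Syk was called against microglia without TZM replicate 3 (1.07), microglia replicate 1 (1.0) or microglia replicate 2 (1.02). The lipid phosphatase Inpp5d, which restrains this signalling, was lower in TZM than in microglia at -1.35 (adjusted p = 2.2e-05). Plcg2, a phospholipase downstream of TREM2, gave -0.40 against microglia and -0.42 against DC, under the minimum fold change. Apoe, whose product binds TREM2, was higher in TZM by 3.50 than in DC (adjusted p = 8.8e-06) and by 1.54 than in microglia (adjusted p = 0.0014). Apoe stood at 11.74, 10.95 and 11.78 in the microglia arrays, and without both Ttr-high arrays the second value was 2.08 (adjusted p = 0.0018).

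Of 18 measured genes for TREM2 signalling and ligands, 6 were higher and 3 lower in TZM than in DC (median 0.62), and 2 were higher and 4 lower in TZM than in microglia (median -0.03). Over all genes the shares higher and lower were 4.71% and 4.03% against DC and 4.25% and 3.4% against microglia (medians 0.02 and 0.01). The 2 higher against microglia became 1 without TZM replicate 2, with array weights and with quantile normalization. Of the 3 lower than in DC, Lat2 stood at -1.03. It was under the minimum fold change without TZM replicate 1 (-0.98) and without TZM replicate 2 (-0.97). The list holds 2 inhibitory sialic acid receptors, both higher in TZM than in DC. Cd33 was at 10.17 ± 0.24 in TZM, 10.94 ± 0.11 in microglia and 5.19 ± 0.08 in DC, with a log2 fold change of -0.77 for TZM against microglia (adjusted p = 0.002, under the minimum fold change). Siglece was at 5.60 ± 0.34 in TZM, 9.09 ± 0.30 in microglia and 4.40 ± 0.12 in DC, lower in TZM than in microglia at -3.49 (SE 0.19, adjusted p = 4.8e-06). In the wider family of TREM, CD300 and paired receptors, 7 of 12 measured genes were higher and 1 lower in TZM than in DC, and 4 were higher and 0 lower in TZM than in microglia (8 and 1 at an unadjusted limma p under 0.05). Cd300lf, a lipid-binding receptor, was higher in TZM by 2.87 than in microglia (SE 0.32, adjusted p = 0.00031), and Cd300ld by 2.64 (SE 0.22, adjusted p = 5.5e-05). Treml4, a receptor for dead cells, was at 7.45 ± 0.25 in TZM, 4.46 ± 0.39 in microglia and 10.45 ± 0.08 in DC.

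**Figure D4:**
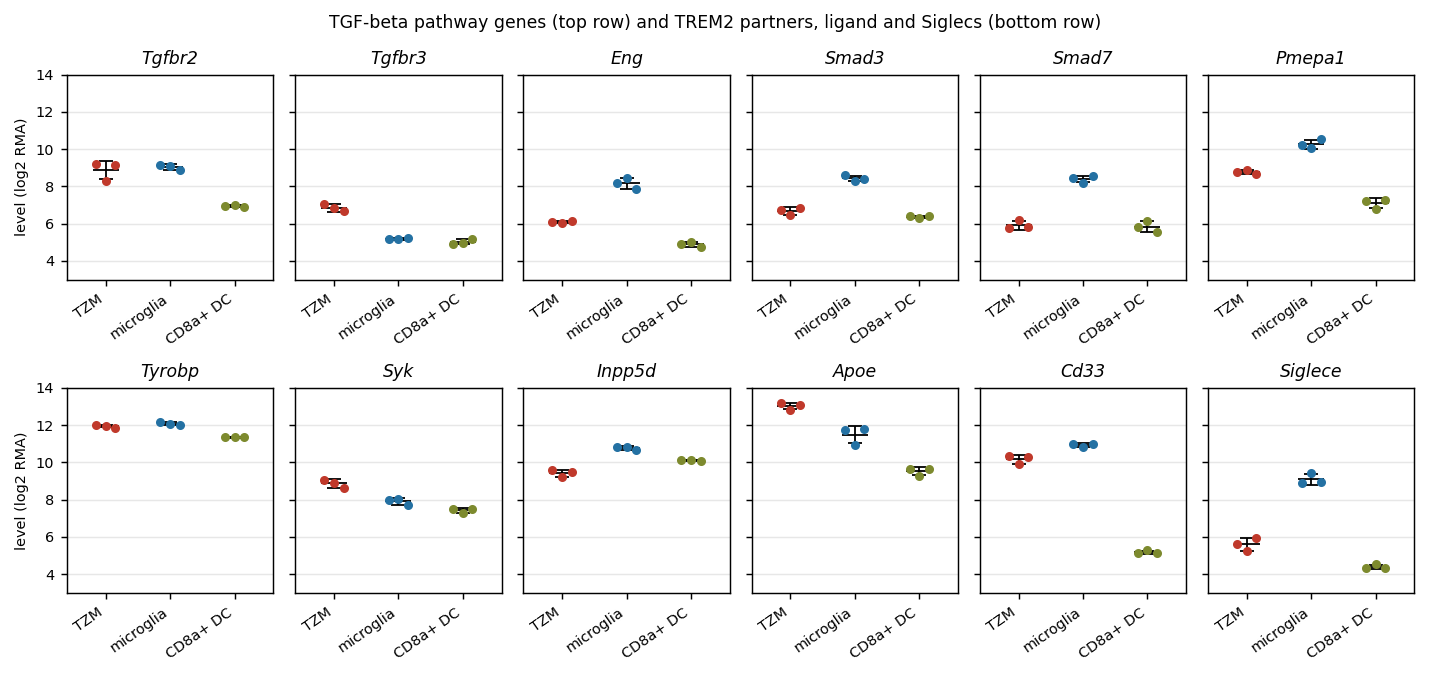
Level (log2 RMA, vertical axis) of TGF-beta pathway genes (top row) and of TREM2 partners, the ligand Apoe and 2 Siglec genes (bottom row) in each array (points) of TZM, microglia and CD8a+ DC, with mean and SD of 3 arrays (bars). Tgfbr2 averages 8.88 in TZM, 9.04 in microglia and 6.94 in DC, whereas Smad7 averages 5.92 in TZM, 8.40 in microglia and 5.84 in DC.

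Relatives of the remaining members were measured too. Cryba4, a crystallin gene with no protein-coding gene between it and Crybb1 in the RefSeq annotation, was at 6.47 ± 0.09 in TZM, 7.68 ± 0.26 in microglia and 5.07 ± 0.19 in DC. It was higher in TZM than in DC by 1.40 (SE 0.14, adjusted p = 0.00016) and lower than in microglia at -1.21 (SE 0.14, adjusted p = 0.00043). Crybb2 was not called in any comparison (adjusted p of 0.40 to 0.85). Crybg1, a crystallin-like gene, was lower in TZM than in DC at -1.67 and higher than in microglia by 2.12. Of 16 crystallin genes, 1 was called in each direction in each comparison, where the shares over all genes ran from 3.4% to 6.01% per direction.

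Among 13 other organic anion transporter genes, Slco4a1 was lower in TZM than in microglia at -1.30 (SE 0.13, adjusted p = 0.0002), and Slco3a1 was lower in TZM than in DC at -3.68 (SE 0.09, adjusted p = 5.4e-08). Slco5a1 was higher in TZM than in microglia by 2.24 (SE 0.23, adjusted p = 0.0002), and Slco2a1, the prostaglandin transporter, was not called in any comparison. Olfml2b, an olfactomedin-domain relative of Olfml3, was at 4.21 ± 0.17 in TZM, 6.11 ± 0.33 in microglia and 4.08 ± 0.14 in DC, and Adgrl2, an adhesion receptor with such a domain, at 6.08 ± 0.31 in TZM, 8.31 ± 0.34 in microglia and 4.55 ± 0.19 in DC, where TZM against microglia was -2.23, or -1.84 without both Ttr-high arrays. Of 11 measured genes of this group 0 were higher and 2 lower in TZM than in microglia. At an unadjusted limma p under 0.05 the counts were 1 and 3. Of the 19938 genes, 4.25% passed as higher and 3.4% as lower in that comparison.

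Bin2, a leukocyte relative of Bin1, was at 6.97 ± 0.14 in TZM, 9.22 ± 0.35 in microglia and 7.46 ± 0.31 in DC, lower in TZM than in microglia at -2.25 (SE 0.20, adjusted p = 8.8e-05), or -1.84 without both Ttr-high arrays. Bin2 was the single called gene of 26 membrane-bending genes between TZM and microglia, where 7.65% of all genes were called. Golm2 was the single called gene of 19 other Golgi genes in that comparison (-1.36, SE 0.26, adjusted p = 0.0067). It averaged 3.67 in TZM and stood at 5.23, 4.31 and 5.53 in the microglia arrays, near or below the array medians. Without both Ttr-high microglia arrays the value was -0.64, under the minimum fold change. The level filter removed Golm2 before testing. Between TZM and DC, where 8.74% of all genes were called, limma called 0 of the 19, with 3 higher and 2 lower at an unadjusted p under 0.05.

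A further list of 26 measured microglia genes outside the 10 gave 11 higher and 0 lower in TZM than in DC (15 and 4 at an unadjusted limma p under 0.05), and 21 lower and 0 higher in TZM than in microglia (26 and 0). Over all genes 4.71% were called higher and 4.03% lower against DC, and 3.4% lower and 4.25% higher against microglia. Genes with an in-between level in TZM included P2ry12, a receptor for purine nucleotides, at 4.98 against DC and -1.68 against microglia. Genes near the DC level in TZM included Slc2a5 (-0.19 against DC and -5.51 against microglia). These genes were known as microglia genes when listed, so their direction against microglia is no independent evidence. The list also holds Cx3cr1, the locus of the reporter by which TZM and microglia were sorted as GFP-high. Its call in TZM against DC (4.91) is therefore no finding.

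The array with the most Bpifa2, TZM replicate 2, was the lowest TZM array for 8 of the 10 genes. It also had the most S100a8 and S100a9, of the neutrophil and monocyte list. In TZM replicates 1, 2 and 3 S100a8 stood at 5.89, 9.28 and 7.32 and S100a9 at 6.21, 9.39 and 7.89. Without TZM replicate 2 the 5 genes shared in part, the 4 near DC and Cst3 kept their classes. They also kept them without both Ttr-high microglia arrays, an alternative chosen after seeing the data, in which the 1 remaining microglia array was assumed to vary like the other groups. The part of salivary, neutrophil, monocyte or choroid plexus RNA in single values was not tested.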

How the data were processed

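The deposited table held log2 expression values for 35556 probe sets in 9 samples, made by the authors with Affymetrix Expression Console 1.3.1 and RMA, per the submitters' processing notes. RMA subtracts background and puts arrays on 1 scale, and it compresses differences between dim genes. Of the probe sets, 21789 had 1 symbol in the platform annotation, 1621 had several and 12146 had none. Symbols were updated by Entrez identifier from RefSeq (GRCm38.p6), and the brightest probe set per gene left 19938 genes.

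One limma model (limma 3.58.1, R 4.3.3) of the 9 arrays had the group as its term and moderated variances, with Benjamini-Hochberg adjustment over all genes. All SEs, intervals and adjusted p-values are limma's. The fit was tested on simulated data with known changes. The number of arrays limits the precision, and the replicates are labelled biological. The members and the 10 pathway and 13 marker lists were chosen with earlier results of these data known. Named genes were the members, 22 fixed genes, up to 3 called genes with the largest change per list and comparison, the 3 genes most like each member, and marker genes and 4 cystatin genes named after their values were seen. Alternatives were those of the closing section.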

Additional observations from a re-analysis of the deposited data

How the results depend on the processing

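The 20 alternatives were no minimum fold change, a level filter (at least 6 in at least 3 arrays, passed by all 10 genes), median centring, quantile normalization, the mean of probe sets, every probe set, only the compared groups, a trended robust variance, weights per array, the replicate block, each array left out, and both Ttr-high microglia arrays left out. Of 600 log2 fold changes of the 10 genes, 596 kept direction and call. With no minimum fold change Cst3 was called lower in TZM against both populations, which makes 1 gene lower than in DC, and Bin1 was called higher than in DC. The Crybb1 value for TZM against DC reversed to -0.01 without DC replicate 1. Leaving out single arrays left 5 and 0 members higher and lower for TZM against DC, 0 and 9 for TZM against microglia, and 9 and 0 for microglia against DC, with 5 genes shared in part, 4 near DC, 1 other and 0 shared in full. The labels do not say whether samples of equal replicate number were paired. Deviations of same-numbered arrays correlated at -0.145 to 0.128 and those of differently numbered arrays at -0.19 to 0.149. These correlations cannot decide it, since paired samples of different cell types need not deviate together. With the replicate block, Trem2 for TZM against DC was 0.60 (adjusted p = 0.22) and Bin1 0.48 (adjusted p = 0.0089), and no member's call changed.

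Over all genes, no minimum fold change gave 1960 higher and 2065 lower for TZM against DC, 2001 and 1872 for TZM against microglia, and 2400 and 2606 for microglia against DC. Every probe set tested gave 1274, 1252 and 1906 lower, from more features tested. Single arrays left out gave 919 to 989 higher and 713 to 835 lower, 817 to 874 and 644 to 704, and 977 to 1067 and 1107 to 1229. The values of Nrros, Itgb8 and Crybb2 for TZM against DC, all within 0.03 of 0, turned sign without single arrays, at -0.03 to 0.07. Counts of the pathway lists stayed within 1.5 times in 1152 of 1200 cases. Signal near background limits what can be said of Ecscr and Crybb1 in TZM and DC.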

Other observations

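Sgce and Peg10, named above as close to Crybb1 in profile, lie next to each other on chromosome 6 with no protein-coding gene between them in the RefSeq annotation. Sgce was at 4.21 ± 0.03 in TZM, 8.08 ± 0.15 in microglia and 4.11 ± 0.15 in DC (SD, n = 3 each), and Peg10 at 3.74 ± 0.12 in TZM, 7.74 ± 0.11 in microglia and 3.78 ± 0.14 in DC.

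Mrc1, a mannose receptor of macrophages at the borders of the brain, was at 8.96, 7.21 and 8.54 in microglia replicates 1, 2 and 3, and so was highest in the arrays with high Ttr. In TZM it was at 8.20, 7.93 and 7.60, and in DC at 4.11, 4.16 and 4.16. Over 10 border macrophage markers the mean level was 6.62 to 6.88 in TZM, 5.52 to 6.81 in microglia and 4.83 to 4.95 in DC. Trem2 and the other members varied by at most 0.39 between the microglia arrays.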
